A study of Arabidopsis thaliana with 24 samples.

Results

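Cytochrome P450 genes were followed through the early chitin response of *Arabidopsis thaliana* seedlings. A probe set was taken when its single annotated gene had a symbol or synonym made of CYP, 2 or 3 digits and a letter, with cyclophilins left out, which gave 23 probe sets of 23 genes. Of these, 12 were among the 72.7% of the array's 22746 probe sets, controls left out, that had the highest mean signal over all arrays and were tested, and 11 were below that limit and are described at the end. The members are a narrow share of the family, because the annotation used here pairs only some of the array's probe sets with a gene. The same name rule finds 252 P450 genes in the assembly TAIR10.1, 37 of them in subfamily CYP71B, and 19 of the 23 members and 10 of the 12 tested ones belong to CYP71B. Of the other tested genes, *CYP84A4* belongs to CYP84A, and *CYP51G2* belongs to CYP51G and is a transcribed pseudogene in TAIR10.1.

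P450 enzymes are heme-containing monooxygenases that plants anchor mostly in the membrane of the endoplasmic reticulum and that take electrons from an NADPH-dependent reductase. They insert oxygen into small molecules on the way to sterols, hormones, lignin, cutin, glucosinolates and antimicrobial compounds. In Arabidopsis the indole phytoalexin camalexin is made from tryptophan by a row of P450 enzymes, and its last enzyme, CYP71B15, is a relative of the genes described here. CYP71B itself is a large subfamily whose genes often stand in tandem, and for most of its members no substrate is stated here.

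Seedlings of 3 lines were grown in liquid culture under constant light for 14 days with about 500 seeds in 125 mL of medium, then kept for 30 min with acid-hydrolysed crab shell chitin at 100 mg/L or with the same volume of water, called mock. The lines were *atl9* (allele rre1-1), *rre2* (allele rre2-1) and the wild type Col-0. Each mutant is 1 T-DNA insertion line of a RING-type ubiquitin ligase gene, *ATL9* in *atl9* and *ATL2* in *rre2*, and the probe sets of these genes are not analysed here. Each of the 6 groups had 4 biological replicates, and RNA of whole seedlings was hybridized to 1 ATH1 array per replicate, so that 24 arrays were used. The labels of the Col-0 chitin samples say untreated in one field and chitin in their titles and source names, and they were taken as chitin-treated. Values below are relative signals, that is, the deposited signal intensity divided by the median of its own array. Differences are log2 differences of relative signals with the standard error of limma, and a member was called when the p-value adjusted over all tested probe sets was under 0.05.

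Array medians were 150–168 in *atl9* after chitin and 173–185 in *atl9* mock, 148–157 in *rre2* after chitin and 162–189 in *rre2* mock, and 139–163 in Col-0 after chitin and 170–182 in Col-0 mock. Chitin arrays thus had the lower medians in every line, and without division by them the median log2 difference of all probe sets after chitin moved to -0.16 in *atl9*, -0.17 in *rre2* and -0.16 in Col-0, against 0.01, 0.00 and 0.05 with it. Shoot markers were measured by 4 of 22 listed genes (*LHCB4.1*, *LHCB4.2*, *PSAN*, *RCA*), and root markers by 2 of 22 (*EXPA7*, *EXPA18*), so that both organs were represented in the tissue. The summed relative signal of the 4 shoot genes was 92.0–175 in *atl9* after chitin and 109–125 in *atl9* mock, 73.9–111 in *rre2* after chitin and 79.6–139 in *rre2* mock, and 159–197 in Col-0 after chitin and 82.8–116 in Col-0 mock. All 4 were called higher after chitin in Col-0, beside 11.4% of all tested probe sets. None was called higher in *atl9* or *rre2*, beside 7.57% and 8.29%. After chitin 3 of 4 were lower in *rre2* than in Col-0, beside 4.49%. The chitin response of the mutant minus that of Col-0 was called for 0 of 4 in *atl9* and 1 of 4 in *rre2*. That gene was *LHCB4.2* (-1.5, adjusted p = 0.0307), and for the others a difference in response between lines was not shown. The 2 root genes summed to 8.5–16 in *atl9* after chitin and 13.8–15.7 in *atl9* mock, 14.1–16.6 in *rre2* after chitin and 10.7–17.8 in *rre2* mock, and 14.4–17.9 in Col-0 after chitin and 13.5–16.5 in Col-0 mock, and neither was called in any comparison. In whole seedlings fewer cells of a type and less RNA per cell cannot be told apart, and the part of organ composition in the P450 values was not tested.

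The chitin response of the P450 genes was a rise of a few members beside a majority that did not pass the test. *CYP71B5* rose in all 3 lines, *CYP84A4* rose in *atl9* and Col-0, *CYP71B6* and *CYP71B22* rose in both mutants, and *CYP71B37* fell in *rre2*. In *atl9*, 4 of 12 members were called higher and 0 lower, where 7.57% and 2.99% of all tested probe sets were called. In *rre2*, 3 of 12 were higher and 1 lower, against 8.29% and 3.82% of all probe sets. In Col-0, 2 of 12 were higher and 0 lower, against 11.4% and 5.57%. The counts called higher rest on 2 to 4 genes of 12, and their difference from the shares of all probe sets was not tested. The median log2 response of the 12 members was 0.06 in *atl9*, 0.07 in *rre2* and 0.20 in Col-0, beside 0.01, 0.00 and 0.05 for all probe sets. Members were split about evenly by sign, with 6 of 12 above 0 in *atl9*, 6 of 12 in *rre2* and 7 of 12 in Col-0.

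Replicate groups did not overlap for each called member, and also for 2 members without a call, *CYP84A4* in *rre2* and *CYP71B34* in *rre2* and Col-0. Every chitin array was above every mock array for 4 members in *atl9*, 4 in *rre2* and 2 in Col-0, where 9.77%, 9.93% and 14.2% of all probe sets were so placed. Every chitin array was below every mock array for 0, 2 and 1 members in the same lines, against 5.32%, 5.58% and 6.21%. The plot of each array's signal shows these groups for all 12 tested members.

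**Figure D1:**
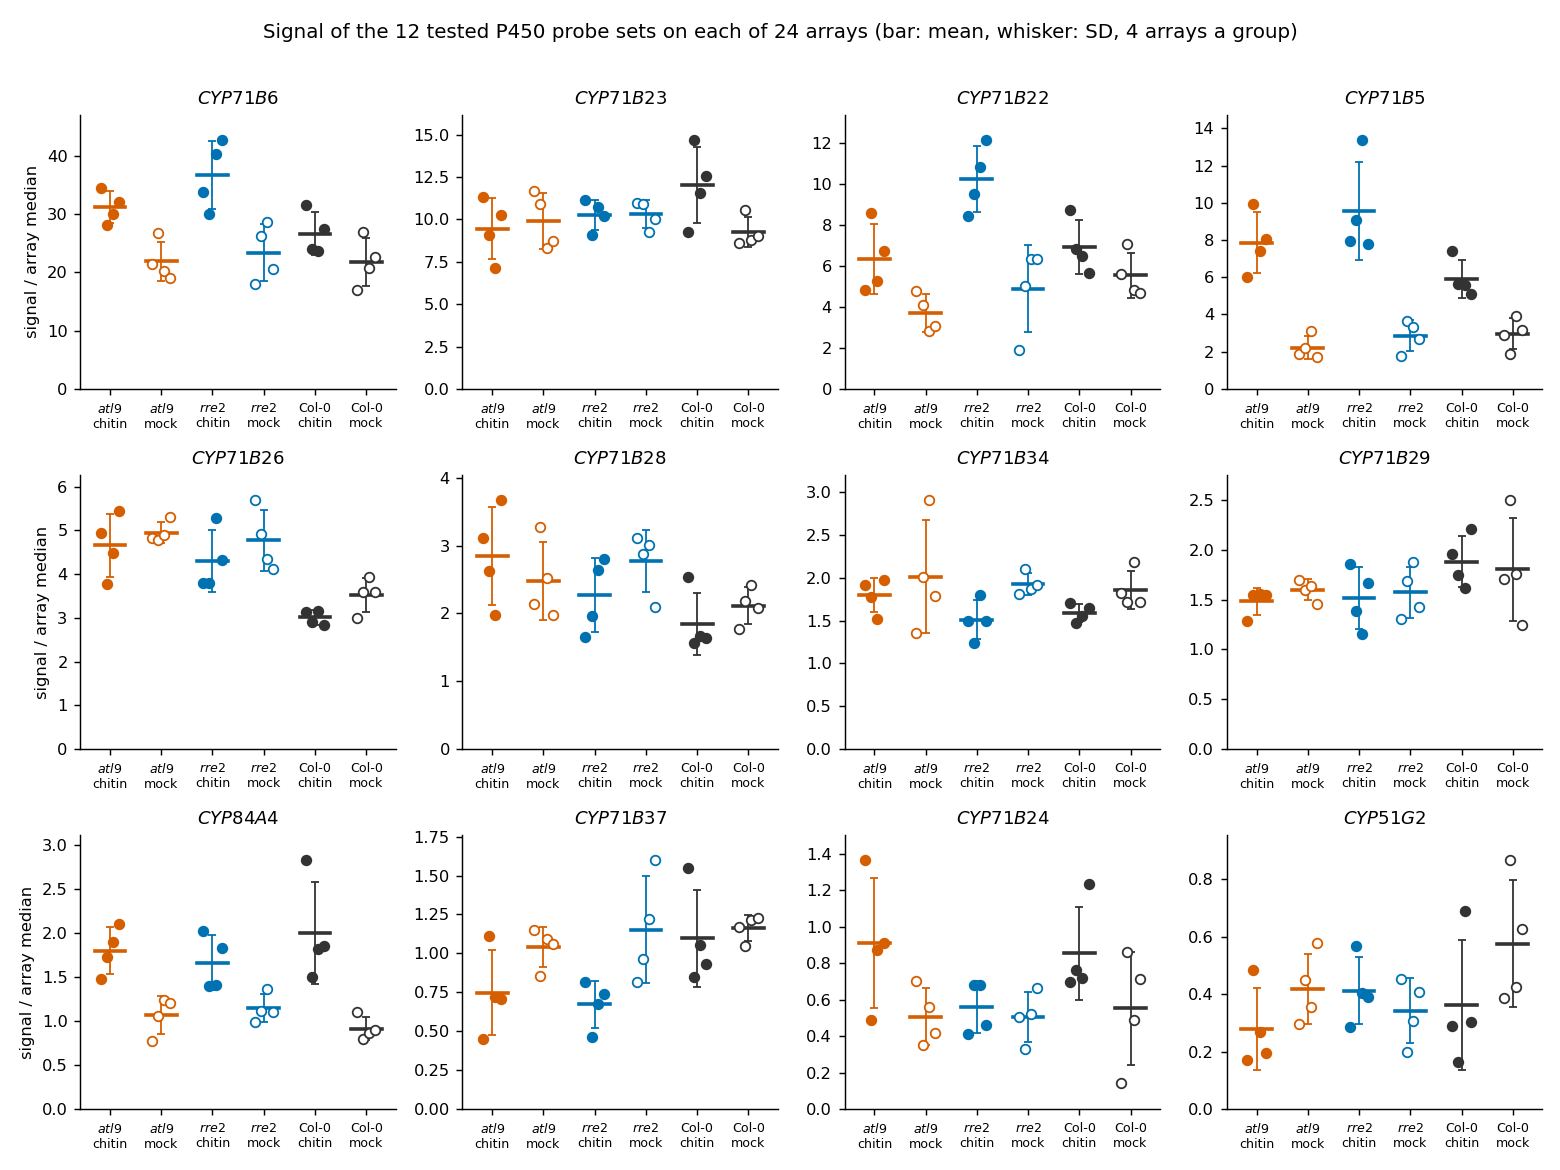
Relative signal (signal divided by the array median, linear axis from 0, a separate range for each gene) of the 12 tested P450 probe sets on 24 arrays; filled points are chitin arrays, open points mock arrays, the bar is the mean and the whisker the SD of 4 arrays. *CYP71B5* shows chitin arrays at 5.07–13.4 and mock arrays at 1.70–3.94 over the 3 lines, while *CYP71B26* shows both mutants above Col-0 in each treatment.

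*CYP71B5*, a gene that stands beside *CYP71B30P* on chromosome 3, had the largest rises among the 12 tested members in both mutants. Its relative signal was 6.0, 9.92, 7.42 and 8.07 in *atl9* after chitin, against 1.87, 2.19, 3.12 and 1.70 in *atl9* mock. In *rre2* it was 7.95, 9.06, 13.4 and 7.79 after chitin, against 1.77, 3.67, 3.33 and 2.70 in mock. In Col-0 it was 7.39, 5.64, 5.57 and 5.07 after chitin, against 2.90, 1.90, 3.94 and 3.15 in mock. No chitin array of any line reached down to a mock array of any line. The rise was 3.58-fold in *atl9* (log2 difference 1.84 ± 0.23, adjusted p = 3.06e-05), 3.37-fold in *rre2* (1.75 ± 0.26, adjusted p = 0.000123) and 2.04-fold in Col-0 (1.03 ± 0.23, adjusted p = 0.0061). Within single scan days the rise was 1.37 to 2.27 in *atl9*, 1.23 to 1.96 in *rre2* and 0.96 and 1.32 in Col-0 on the log2 scale. Each of these values rests on 1 array against 1 or 2 against 2. Within each day mock and chitin arrays still ran on different fluidics modules.

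After chitin all 4 *rre2* arrays of *CYP71B5* stood above all 4 Col-0 arrays, with a log2 difference of 0.67 (95% interval 0.13 to 1.21) that did not pass the test (adjusted p = 0.125). The chitin response of *atl9* exceeded that of Col-0 by 0.81 (95% interval 0.11 to 1.51), with an adjusted p of 0.269, and that of *rre2* exceeded it by 0.73 (95% interval -0.04 to 1.49), with an adjusted p of 0.411. A larger rise in the mutants than in Col-0 was therefore not established for this gene.

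*CYP84A4* is the P450 of arabidopyrone synthesis, a branch from the phenylpropanoids, and a relative of the lignin enzyme ferulate 5-hydroxylase. Its relative signal was 1.47, 1.73, 1.91 and 2.1 in *atl9* after chitin, against 0.776, 1.05, 1.24 and 1.21 in *atl9* mock. In *rre2* it was 2.02, 1.40, 1.41 and 1.83 after chitin, against 0.996, 1.12, 1.37 and 1.11 in mock. In Col-0 it was 2.83, 1.5, 1.82 and 1.85 after chitin, against 1.10, 0.795, 0.865 and 0.896 in mock. Chitin arrays were above mock arrays in each line, narrowly so in *rre2*, and the Col-0 chitin array of 2.83 was the highest of all. The rise was 1.70-fold in *atl9* (0.76 ± 0.20, adjusted p = 0.0179) and 2.14-fold in Col-0 (1.10 ± 0.20, adjusted p = 0.000997). The *rre2* value of 0.53 ± 0.19 did not pass (adjusted p = 0.0892). It passed after quantile normalization (0.54, adjusted p = 0.0475) and without Col-0 chitin replicate 1 (adjusted p = 0.0361). The responses of the mutants minus that of Col-0 were -0.34 (95% interval -0.93 to 0.26) for *atl9* and -0.57 (95% interval -1.14 to 0.00) for *rre2*, with adjusted p-values of 0.627 and 0.380. The *atl9* call of *CYP84A4* was lost without *atl9* mock replicate 1 or *atl9* chitin replicate 3 or 4 (adjusted p 0.0509 to 0.0640), while the Col-0 call was kept without any one array.

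Genes of the phenylpropanoid pathway that are not P450s could be tested for 2 of 25 listed. *CCR2*, a cinnamoyl-CoA reductase on the way to lignin monomers, was called higher after chitin in *atl9* (2.46 ± 0.19, adjusted p = 1.56e-07), in *rre2* (2.94 ± 0.13, adjusted p = 3.61e-10) and in Col-0 (2.08 ± 0.19, adjusted p = 1.36e-06). *HCT*, the acyltransferase that provides the shikimate esters of this pathway, was at -0.21, -0.30 and -0.27 in *atl9*, *rre2* and Col-0 and was not called. After chitin the difference of *atl9* minus Col-0 was 0.66 for *CCR2* (adjusted p = 0.0380) and that of *rre2* minus Col-0 was 0.91 (adjusted p = 0.0014). The same differences of *CYP84A4* were -0.12 and -0.24 and did not pass. In mock the differences of *CCR2* were 0.28 for *atl9* and 0.05 for *rre2* and did not pass. Its responses in the mutants minus that in Col-0 did not pass either, at 0.38 for *atl9* (adjusted p = 0.567) and 0.86 for *rre2* (adjusted p = 0.0607).

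**Figure D2:**
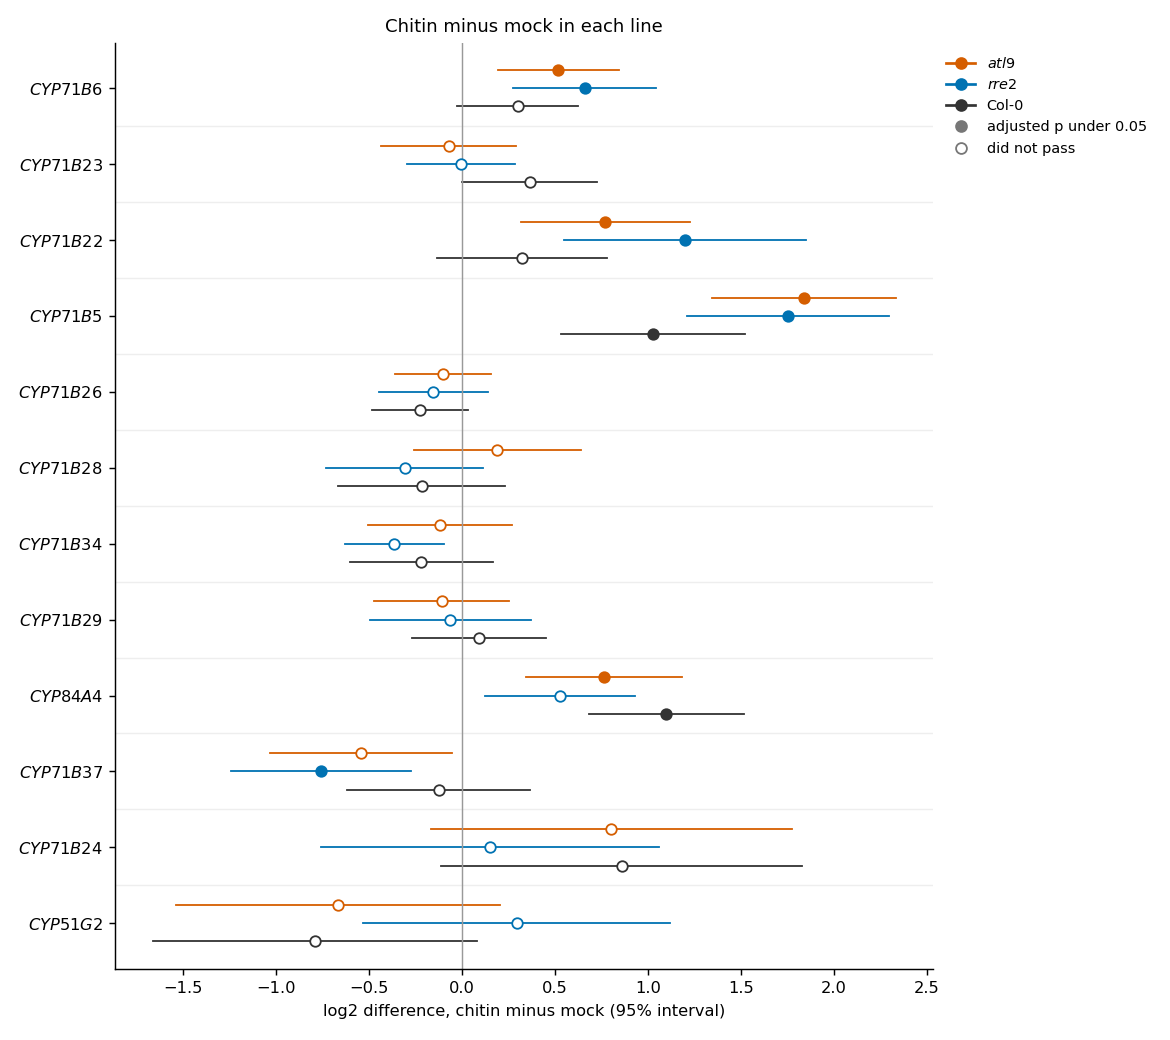
Log2 difference of chitin minus mock (horizontal axis) for the 12 tested P450 genes in *atl9*, *rre2* and Col-0; points are estimates of limma from 4 arrays against 4, lines are 95% intervals and filled points passed at an adjusted p under 0.05. *CYP71B5* lies to the right of 0 in all 3 lines, at 1.84, 1.75 and 1.03.

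*CYP71B6* turns indole-3-acetonitrile into indole-3-carbaldehyde and indole-3-carboxylic acid, compounds of the same indole metabolism from which camalexin arises. Its relative signal was 34.5, 28.2, 30.0 and 32.1 in *atl9* after chitin, against 21.5, 26.7, 20.3 and 19.0 in *atl9* mock. In *rre2* it was 33.7, 30.1, 40.3 and 42.8 after chitin, against 18, 26.3, 28.6 and 20.6 in mock. In Col-0 it was 31.6, 24.1, 23.6 and 27.4 after chitin, against 17.0, 27.0, 20.7 and 22.6 in mock. Chitin arrays were all above mock arrays in both mutants, and the groups overlapped in Col-0. The rise was 1.43-fold in *atl9* (0.52 ± 0.15, adjusted p = 0.0387) and 1.58-fold in *rre2* (0.66 ± 0.18, adjusted p = 0.0226), and the Col-0 value of 0.30 ± 0.15 did not pass (adjusted p = 0.200). The responses did not differ by the test of the difference, at 0.22 (95% interval -0.24 to 0.68) for *atl9* minus Col-0 and 0.36 (95% interval -0.18 to 0.90) for *rre2* minus Col-0.

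The calls of *CYP71B6* were weak. After quantile normalization they were lost in *atl9* (0.23, adjusted p = 0.334) and in *rre2* (0.36, adjusted p = 0.112), and in *atl9* they were also lost without the filter on mean signal (adjusted p = 0.0677), with the values as deposited (adjusted p = 0.104) and with the replicate number as a block (adjusted p = 0.0700). The *atl9* call was lost when single arrays were left out, namely replicates 1, 3 or 4 of either *atl9* group, the third of Col-0 mock or the fourth of Col-0 chitin (adjusted p 0.0502 to 0.1195), and the *rre2* call without any one of *rre2* mock replicates 1 and 4 and *rre2* chitin replicates 3 and 4 (adjusted p 0.0609 to 0.0754). Of 23 listed genes of camalexin and indole glucosinolate synthesis that are not P450s, 1 could be tested. It was *UGT74B1*, a glucosyltransferase of the glucosinolate core pathway, and its chitin responses of -0.59 in *atl9*, -0.09 in *rre2* and -0.15 in Col-0 did not pass (adjusted p = 0.154, 0.830 and 0.712).

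On chromosome 3, 16 P450 genes, all of CYP71B, stand in 1 run that is broken only by 4 other protein-coding genes in TAIR10.1. Of the 16, 6 were tested, 5 were below the limit on mean signal and 5 have no probe set of their own in the annotation used here. The plot in gene order shows their responses, and differences between neighbours were not tested. *CYP71B22* was called higher in both mutants, the adjoining *CYP71B23* was not called in any line, and *CYP71B37* at the end of the run was called lower in *rre2*. The adjoining *CYP71B26* and *CYP71B34* were at -0.10 and -0.12 in *atl9*, -0.15 and -0.36 in *rre2* and -0.22 and -0.22 in Col-0, and neither was called.

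**Figure D3:**
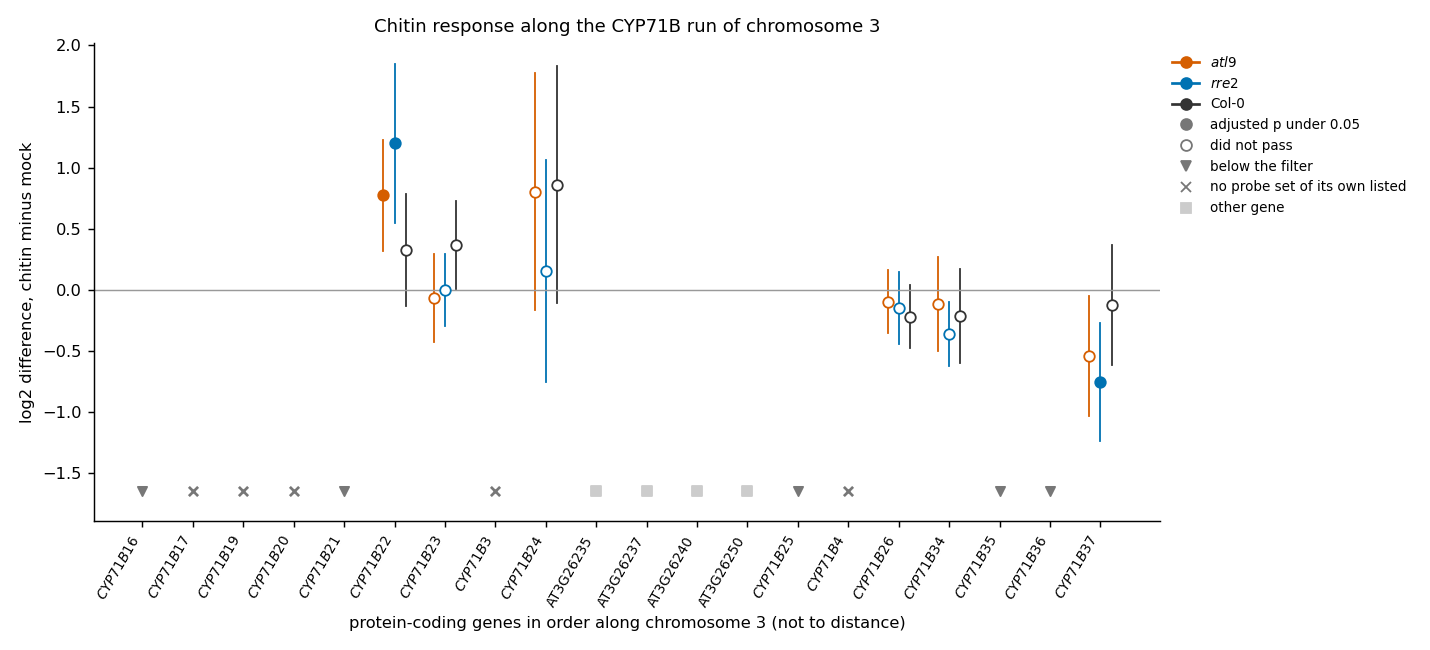
Log2 difference of chitin minus mock (vertical axis) for the 6 tested genes of the CYP71B run, placed in gene order along chromosome 3 and not by distance; lines are 95% intervals, filled points passed at an adjusted p under 0.05, and marks at the bottom show genes without a tested value. *CYP71B22* lies at 0.77 in *atl9* and 1.2 in *rre2*, and *CYP71B37* at -0.76 in *rre2*.

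*CYP71B22* had relative signals of 4.82, 8.56, 5.26 and 6.72 in *atl9* after chitin, against 4.8, 4.1, 2.85 and 3.05 in *atl9* mock. In *rre2* it had 8.46, 9.52, 10.8 and 12.2 after chitin, against 1.89, 5.03, 6.35 and 6.32 in mock. In Col-0 it had 8.75, 6.82, 6.47 and 5.65 after chitin, against 5.59, 7.05, 4.82 and 4.69 in mock. The separation in *atl9* was only just complete, it was wide in *rre2*, and the Col-0 groups overlapped. The rise was 1.71-fold in *atl9* (0.77 ± 0.21, adjusted p = 0.0288) and 2.30-fold in *rre2* (1.2 ± 0.31, adjusted p = 0.0148), and the Col-0 value of 0.32 ± 0.21 did not pass. The response of *rre2* minus that of Col-0 was 0.88 (95% interval -0.04 to 1.79) with an adjusted p of 0.407, and that of *atl9* minus that of Col-0 was 0.45 (95% interval -0.20 to 1.10) with an adjusted p of 0.535. Between lines, *atl9* minus Col-0 was -0.60 in mock and -0.15 after chitin, and neither passed (adjusted p = 0.652 and 0.699). The *atl9* call was lost without the filter (adjusted p = 0.0577), in the fit without moderation (adjusted p = 0.0502), in a fit of all 24 arrays (adjusted p = 0.111) and without single arrays, namely replicate 3 or 4 of *atl9* mock or replicate 2 or 4 of *atl9* chitin (adjusted p 0.0752 to 0.0988). The *rre2* call of *CYP71B22* held when single arrays were left out (largest adjusted p = 0.0463), although the *rre2* mock array of 1.89 lay apart from the others and the rise was 0.79 without it.

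*CYP71B37* moved the other way. Its relative signal was 0.448, 1.11, 0.720 and 0.710 in *atl9* after chitin, against 1.15, 0.855, 1.09 and 1.06 in *atl9* mock. In *rre2* it was 0.817, 0.464, 0.676 and 0.739 after chitin, against 0.819, 0.963, 1.22 and 1.6 in mock. In Col-0 it was 1.55, 0.850, 1.05 and 0.932 after chitin, against 1.17, 1.04, 1.21 and 1.23 in mock. Only the *rre2* groups did not overlap, and by a margin of 0.817 against 0.819. The fall in *rre2* was 1.69-fold (-0.76 ± 0.23, adjusted p = 0.0398), and the values of -0.54 in *atl9* (adjusted p = 0.187) and -0.12 in Col-0 did not pass. The *atl9* value passed with the values as deposited (-0.71, adjusted p = 0.0273) and without *atl9* chitin replicate 2 (-0.76, adjusted p = 0.0308), and without that array *CYP71B37* was also lower in *atl9* than in Col-0 after chitin (-0.80, adjusted p = 0.0204). The *rre2* call of *CYP71B37* was lost without the filter (adjusted p = 0.0754), in the fit without moderation (adjusted p = 0.0659) and with scan day as a block (adjusted p = 0.0693), and its probe set was not among the 11000 of highest mean signal. It was lost without any one of 9 arrays as well (replicates 1, 3 and 4 of Col-0 mock, 3 of Col-0 chitin, 3 and 4 of *rre2* mock, and 2, 3 and 4 of *rre2* chitin, with adjusted p 0.0502 to 0.1371).

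The other genes of the run had no call in the chitin responses. *CYP71B23* ranged over 7.16–11.3 in *atl9* after chitin and 8.29–11.7 in *atl9* mock, 9.07–11.1 in *rre2* after chitin and 9.26–11 in *rre2* mock, and 9.27–14.7 in Col-0 after chitin and 8.63–10.6 in Col-0 mock. Its groups overlapped in each line, and its log2 responses were -0.07, 0.00 and 0.36. *CYP71B34* was 0.36 lower after chitin in *rre2*, with arrays at 1.24–1.80 after chitin and 1.81–2.1 in mock, and did not pass (adjusted p = 0.0755). With the values as deposited this difference was -0.54 with an adjusted p of 0.0061, in the fit without moderation its adjusted p was 0.0487, and without *rre2* chitin replicate 3 it was -0.45 with an adjusted p of 0.0278. *CYP71B24* had a mean log2 relative signal of -0.76 over all arrays, with 0.489–1.37 in *atl9* after chitin and 0.354–0.702 in *atl9* mock. Its responses of 0.80 in *atl9*, 0.15 in *rre2* and 0.86 in Col-0 had standard errors of 0.46, 0.43 and 0.46 and did not pass.

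*CYP71B26*, of the same run, was called between lines after chitin and not between treatments. Its relative signal after chitin was 4.95, 3.77, 4.48 and 5.45 in *atl9* and 3.80, 3.80, 5.29 and 4.32 in *rre2*, against 3.14, 2.91, 3.17 and 2.83 in Col-0. In mock it was 4.82, 4.78, 4.89 and 5.30 in *atl9* and 5.70, 4.92, 4.35 and 4.12 in *rre2*, against 2.99, 3.59, 3.94 and 3.58 in Col-0. Every array of either mutant was above every Col-0 array of the same treatment. After chitin the gene was 1.53-fold higher in *atl9* than in Col-0 (0.62 ± 0.12, adjusted p = 0.0054) and 1.42-fold higher in *rre2* than in Col-0 (0.50 ± 0.14, adjusted p = 0.0388). The comparisons of the 2 mutants share the Col-0 arrays, so that they are not independent of each other. In mock the differences were 0.49 (95% interval 0.24 to 0.75) for *atl9* and 0.43 (95% interval 0.14 to 0.73) for *rre2* and did not pass (adjusted p = 0.525 and 0.781). Its own chitin responses were -0.10 in *atl9*, -0.15 in *rre2* and -0.22 in Col-0, and none passed. With the values as deposited, its response in Col-0 was called lower.

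Over both treatments together, a comparison added after the values of mock and chitin had been seen, *CYP71B26* was higher by 0.56 ± 0.09 in *atl9* (adjusted p = 0.0026) and by 0.47 ± 0.10 in *rre2* (adjusted p = 0.0206) than in Col-0. Within single scan days, with 1 array against 1 or 2 against 2, the difference after chitin was 0.78 and 0.46 for *atl9*. For *rre2* it was 0.86, 0.45 and 0.35. The call of *atl9* after chitin was kept without any one array (largest adjusted p = 0.0228). The call of *rre2* after chitin was lost after quantile normalization (adjusted p = 0.0573), with the values as deposited (adjusted p = 0.0515), without the filter (adjusted p = 0.0651), with scan day as a block (adjusted p = 0.0576) and with the replicate number as a block (adjusted p = 0.0597). It was also lost without any one of the 4 Col-0 chitin arrays or of *rre2* chitin replicates 2, 3 and 4 (adjusted p 0.0504 to 0.126), and the call over both treatments was lost without Col-0 chitin replicate 4 (adjusted p = 0.0535).

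*CYP71B26* was the 1 member of 12 called between a mutant and Col-0 after chitin. For *atl9* minus Col-0, 1 member was higher and 0 lower, beside 5.15% and 7.05% of all probe sets. For *rre2* minus Col-0, 1 was higher and 0 lower, beside 2.84% and 4.49%. Over both treatments 1 was higher and 0 lower in each mutant, beside 2.96% and 3.78% for *atl9* and 1.17% and 1.69% for *rre2*. A single called member gives no share that could be set against these. The median difference of the 12 members after chitin was -0.04 for *atl9* and 0.10 for *rre2*, beside -0.03 and 0.00 for all probe sets.

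Groups of arrays that did not overlap were also counted between lines. After chitin 1 member was wholly above (*CYP71B26*) and 1 wholly below Col-0 (*CYP71B29*) in *atl9*, beside 7.07% and 10.5% of all probe sets. In *rre2* 2 were wholly above (*CYP71B26*, *CYP71B5*) and 2 wholly below (*CYP71B37*, *CYP71B24*), beside 6.53% and 8.68%. For *rre2* minus Col-0 after chitin, *CYP71B37* was at -0.69 (95% interval -1.18 to -0.21) and *CYP71B24* at -0.61. Neither passed (adjusted p = 0.0768 and 0.423). In mock *CYP71B26* was the 1 member wholly above Col-0 in each mutant, beside 2.0% and 1.83%, and 0 were wholly below, beside 2.71% and 1.34%. By limma's adjusted p, 0 of 12 members were called in mock in either mutant, as were 0.00605% of all probe sets in *atl9* and 0.0% in *rre2*. At an unadjusted p under 0.05 these were 2 of 12 members in *atl9* (*CYP71B26* and *CYP71B22*) and 1 of 12 in *rre2* (*CYP71B26*), beside 6.82% and 5.78% of all probe sets.

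**Figure D4:**
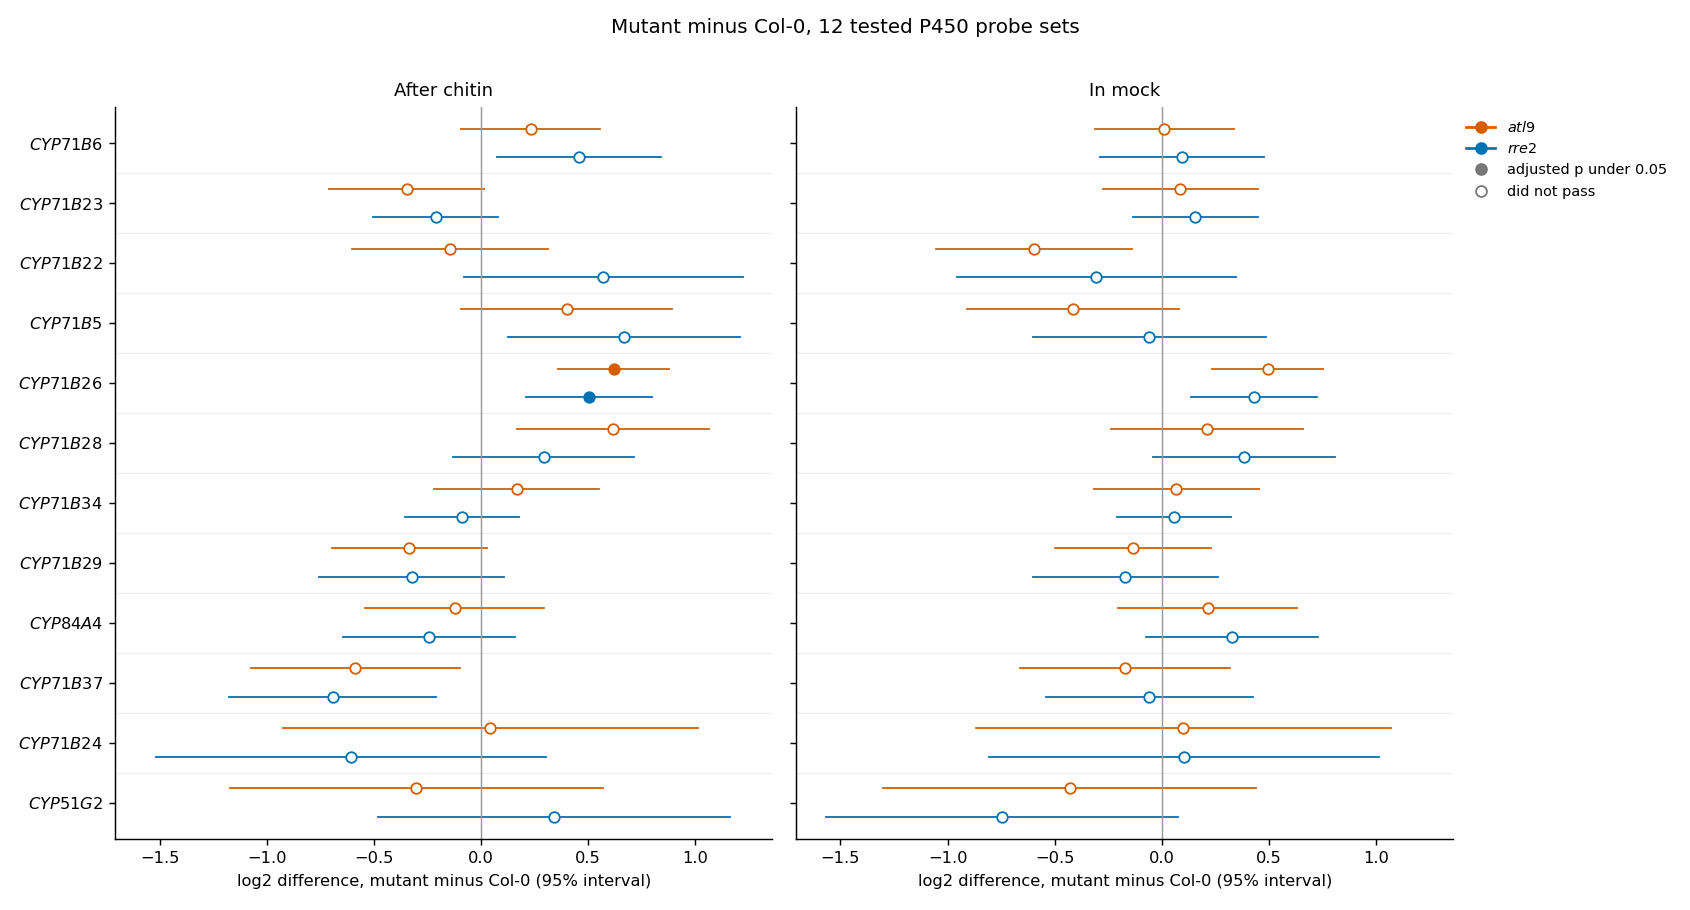
Log2 difference of each mutant minus Col-0 (horizontal axis) after chitin (left) and in mock (right) for the 12 tested P450 genes; points are estimates of limma from 4 arrays against 4, lines are 95% intervals and filled points passed at an adjusted p under 0.05. *CYP71B26* lies at 0.62 and 0.5 after chitin and at 0.49 and 0.43 in mock.

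On chromosome 1, *CYP71B28* and *CYP71B29* are adjoining genes. *CYP71B28* had 3.11, 2.63, 1.97 and 3.67 in *atl9* after chitin and 1.66, 1.96, 2.64 and 2.81 in *rre2* after chitin, against 2.53, 1.56, 1.66 and 1.64 in Col-0 after chitin. The *atl9* and Col-0 arrays overlapped through the Col-0 array of 2.53, and the difference of 0.62 ± 0.21 did not pass (adjusted p = 0.0681). It passed with the values as deposited (0.67, adjusted p = 0.0400) and among the 11000 probe sets of highest mean signal (adjusted p = 0.0420). It also passed without Col-0 chitin replicate 1 (0.78, adjusted p = 0.0278) and without *atl9* chitin replicate 3 (0.78, adjusted p = 0.0359). *CYP71B29* had 1.28–1.56 in *atl9* after chitin against 1.62–2.21 in Col-0 after chitin, wholly below, and the difference of -0.33 ± 0.17 did not pass (adjusted p = 0.209). Neither gene was called in a chitin response, where *CYP71B28* ranged from -0.31 to 0.19 and *CYP71B29* from -0.11 to 0.09.

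*CYP51G2* is a relative of *CYP51G1*, which encodes the obtusifoliol 14α-demethylase of sterol synthesis. Its relative signal stayed under the array median on all 24 arrays, with 0.170–0.483 in *atl9* after chitin and 0.295–0.576 in *atl9* mock, 0.285–0.566 in *rre2* after chitin and 0.198–0.453 in *rre2* mock, and 0.164–0.690 in Col-0 after chitin and 0.387–0.867 in Col-0 mock. The groups overlapped in each line, and the responses of -0.66 ± 0.41, 0.29 ± 0.39 and -0.79 ± 0.41 did not pass. *CYP51G1* and other P450s of sterol synthesis were not analysed here.

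No chitin response of a P450 gene was shown to differ between a mutant and Col-0. The test of the difference called 0 of 12 members for *atl9* and 0 of 12 for *rre2*, beside 0.454% and 0.151% of all probe sets, and its smallest adjusted p among members was 0.269 and 0.380. At an unadjusted p under 0.05 it held 1 of 12 members for *atl9* (*CYP71B5*) and 1 of 12 for *rre2* (*CYP84A4*), beside 14.3% and 13.1% of all probe sets. A call in one line and none in another, as for *CYP71B6*, *CYP71B22* and *CYP71B37*, was therefore not shown to be a difference between lines.

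Partner genes of the P450s were scarce among the tested probe sets. None of 7 listed P450 reductases and cytochrome b5 genes and none of 13 listed triterpene cluster genes that are not P450s could be tested. Of 17 listed jasmonate genes that are not P450s, 2 could be tested. *OPCL1*, a CoA ligase in the peroxisomal steps of jasmonate synthesis, was called higher after chitin in *atl9* (0.96 ± 0.16, adjusted p = 0.000408), *rre2* (0.99 ± 0.16, adjusted p = 0.00028) and Col-0 (0.61 ± 0.16, adjusted p = 0.0133). *JMT*, which methylates jasmonic acid, was called lower after chitin in Col-0 (-1.77 ± 0.56, adjusted p = 0.0413), and was at -0.11 in *atl9* and 0.20 in *rre2*. Its responses in the mutants minus that in Col-0 did not pass, at 1.65 for *atl9* (adjusted p = 0.359) and 1.96 for *rre2* (adjusted p = 0.348). After chitin *JMT* was higher in *rre2* than in Col-0 by 2.90 ± 0.61 (adjusted p = 0.0107). In mock this difference was 0.94 ± 0.61 and did not pass (adjusted p = 0.909). The difference of *atl9* minus Col-0 after chitin was 1.70 ± 0.56 and did not pass (adjusted p = 0.0601). None of the 7 listed P450s of jasmonate synthesis and turnover was tested. The same holds for those listed for brassinosteroid, gibberellin, abscisic acid, cytokinin, cutin and glucosinolate metabolism. Of these, *CYP79A2*, listed for glucosinolates, and *CYP78A9*, listed with fatty acid oxidation and cutin, had probe sets below the limit on mean signal. The others had no probe set of their own in the annotation used here.

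The limit on mean signal lay at a mean log2 relative signal of -2.18. The members just inside it were *CYP51G2* at -1.46, *CYP71B24* at -0.76 and *CYP71B37* at -0.10. Just outside were *CYP71B35* at -2.40, *CYP78A9*, a regulator of fruit and seed size, at -2.48, and *CYP71B36* at -2.60. Farther below were *CYP71B38*, *CYP71B27*, *CYP71B25*, *CYP71B21*, *CYP71B30P*, *CYP71B16*, *CYP71B31*, which oxidizes linalool in flowers, and *CYP79A2*, which makes phenylacetaldoxime for benzyl glucosinolate. *CYP79A2* had the lowest mean of the 23, at -5.92.

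In a fit of all 22746 probe sets that are not controls, 1 of these 11 members was called in 1 comparison, *CYP71B27* as higher in *atl9* than in Col-0 after chitin, where 2.44% of all probe sets were called higher. *CYP71B27*, a transcribed pseudogene in TAIR10.1, had 0.314, 0.201, 0.228 and 0.136 in *atl9* after chitin, against 0.0397, 0.0234, 0.0849 and 0.0151 in Col-0 after chitin. The *atl9* arrays were all above the Col-0 arrays (log2 difference 2.67 ± 0.66, adjusted p = 0.0320). In mock the order was the other way, with 0.151, 0.0399, 0.0162 and 0.113 in *atl9* against 0.164, 0.0894, 0.223 and 0.153 in Col-0, and the groups overlapped. All of these values are far below the array median, where small differences in signal become large on the log2 scale, and detection calls were not used here. *CYP71B21* had 0.293, 0.241, 0.444 and 0.413 in *rre2* after chitin, against 0.0058, 0.0051, 0.162 and 0.117 in *rre2* mock. Its groups did not overlap, and the difference of 3.62 ± 1.38 did not pass (adjusted p = 0.158).

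The genes of CYP71B are alike in sequence, and signal of one may reach the probes of another. No probe or gene sequence was at hand, and the part of such cross-hybridization in these values was not tested. Of the 12 tested genes, 9 stand directly beside another P450 gene in TAIR10.1, and of the 240 protein-coding P450 genes of the assembly 112 do. Neighbours were sought among protein-coding genes and by gene symbol alone, so that some may be missed. The pseudogene *CYP51G2* was not placed and counts as not beside another.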

How the data were processed

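Signals were extracted from ATH1 scans by the authors, per the labels with Affymetrix GeneChip Operating Software at a target of 500 and per the study's methods with Affymetrix MAS software, and the deposited values are these signal intensities on a linear scale. Deposited text files of the instrument settings gave other values, of which scan day and fluidics module were used. No depth in reads exists for arrays, and their number limits the precision. Probe sets were named through the annotation table and TAIR10.1, where 13513 of 22810 probe sets had 1 gene, 503 several and 8794 none listed here, so that none was named from several.

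Each array was scaled by its own median, controls left out (22746 probe sets), and put on the log2 scale with no offset, and the 72.7% of highest mean signal were fitted with limma 3.58.1 (lmFit, eBayes; R 4.3.3), tested on simulated data. Each fit held 16 arrays, those of Col-0 and 1 mutant, as 4 group means, and Benjamini-Hochberg adjustment ran over all tested probe sets. Values of the Col-0 chitin response come from the fit with *atl9*. Intervals are 95% intervals of limma.

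Every tested member may be named. Values of each array are given for members called with replicate groups apart, and for members chosen after their values were seen (*CYP71B28*, *CYP71B27*, *CYP71B21*). The members and the lists of partner and marker genes were chosen with earlier results of these data known. Alternatives were no scaling by the array median, quantile normalization, 32 added to each signal, no filter, 11000 probe sets, no moderation, all 24 arrays in 1 fit, scan day or replicate number as a block, the last scan day alone, a 2-fold limit and each array left out. Replicate numbers were not taken as pairs, and shared growth or treatment of samples with the same number was not tested. Mock and chitin arrays ran on different fluidics modules, so module and treatment cannot be told apart. Some P450 loci of the study's supplement are not analysed here.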

Additional observations from a re-analysis of the deposited data

Results flagged for a closer look

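Of 72 groups of 4 arrays (12 members in 6 groups), 3 held an array far from the others by Dixon's ratio on the log2 scale, and chance gives about 1 in 20 groups. *CYP71B28* had a relative signal of 2.53 in Col-0 chitin replicate 1, against 1.56–1.66 on the other Col-0 chitin arrays, and this array made the *atl9* and Col-0 groups overlap after chitin. *CYP71B29* had 1.28 in *atl9* chitin replicate 1, against 1.54–1.56 on the other arrays of the group. *CYP71B24* had 1.23 in Col-0 chitin replicate 4, against 0.699–0.760 on the other arrays. No chitin response of a member differed between lines by the test of the difference.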

How the results depend on the processing

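No called difference of a single member turned its sign under any alternative run. Differences without a call could turn, as that of *CYP71B37* after chitin in Col-0 did on the last scan day (0.09 against -0.12). Of 14 called differences of single members, 14 remained called with an offset of 32, 13 among 11000 probe sets and in a fit of all 24 arrays, 12 with the values as deposited, without moderation, with scan day as a block and with the replicate number as a block, 11 after quantile normalization, 10 without the filter, 5 at 2-fold and 3 on the last scan day, which leaves 2 arrays a group. Leaving out each array in turn kept such a call 188 times and ended it 36 times.

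Members called higher after chitin were 4 in *atl9*, 3 in *rre2* and 2 in Col-0. On the last scan day each became 1, and in *atl9* the count was 2 without the filter and 1 at 2-fold. Members called lower were 0 in *atl9*, 1 in *rre2* and 0 in Col-0. With the values as deposited they were 1 in *atl9* (*CYP71B37*), 2 in *rre2* (*CYP71B34*, *CYP71B37*) and 1 in Col-0 (*CYP71B26*), and in *rre2* they were 0 without the filter, among 11000 probe sets, with scan day as a block, on the last scan day and at 2-fold. Over all probe sets, the values as deposited turned 1887 higher and 921 lower calls in Col-0 into 1162 and 2536, and quantile normalization turned them into 1377 and 1563.

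After chitin, members higher in *atl9* than in Col-0 were 1, and 2 with the values as deposited, without the filter and among 11000 probe sets, and 0 on the last scan day and at 2-fold. Members higher in *rre2* than in Col-0 were 1, and 0 with the values as deposited, after quantile normalization, without the filter, with scan day as a block, on the last scan day and at 2-fold, and 1 was lower with the values as deposited (*CYP71B37*). Over both treatments the 1 member higher in each mutant became 0 on the last scan day and at 2-fold. The causes were not tested.

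Without 1 array, the counts higher after chitin ran from 1 to 4 in *atl9*, 2 to 4 in *rre2* and 2 to 2 in Col-0, and the counts lower from 0 to 1 in *atl9* and in *rre2*. The counts higher than Col-0 after chitin ran from 1 to 2 in *atl9* and 0 to 1 in *rre2*, and lower from 0 to 1 in *atl9*. Over both treatments they ran from 1 to 2 higher and 0 to 1 lower in *atl9* and 0 to 1 higher in *rre2*.

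Of 28 pairs of groups' arrays with the same replicate number, 5 correlated above 0.1 (range -0.275 to 0.211), so the numbers were not taken as pairs. With the replicate number as a block, 0 members were higher in *rre2* than in Col-0 after chitin, against 1 without it, and other counts of members stayed within 1.5 times.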
